A study of Mus musculus with 6 samples.

Results

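The genes described here move salt and bicarbonate across the duct cells of the salivary gland. They are 8 of the 23366 genes measured, and they were chosen by symbol: the epithelial sodium channel subunits Scnn1a, Scnn1b and Scnn1g, the chloride channel Cftr, the anion exchanger Slc26a6, the sodium-bicarbonate cotransporter Slc4a4, the carbonic anhydrase Car2 and the sodium pump subunit Atp1b1. All 8 were measured in every library and all 8 passed the filter on low values. RNA-seq was done on epithelial cells isolated from the submandibular gland, a major salivary gland, of adult 12-week-old mice, with 3 libraries of p63 knockout and 3 of p63 wild-type animals. The labels give no treatment, strain or sex, name no second allele shared by the groups, and do not say how, when or in which cells p63 (Trp63), a transcription factor of basal epithelial cells, was removed. They do not say how mice were allotted to libraries either, and p-values then measure only how these libraries vary, which may in part be technical.

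Salivary acini secrete a fluid rich in sodium chloride, and the ducts then take back sodium and chloride and add potassium and bicarbonate. Sodium enters a duct cell at its luminal side through the epithelial sodium channel (ENaC), chloride enters through Cftr, and the sodium pump at the blood side drives both steps by exporting sodium in exchange for potassium. Bicarbonate is made inside the cell by carbonic anhydrase or carried in from the blood side by cotransport with sodium, and leaves at the luminal side through exchangers such as Slc26a6 and through Cftr.

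Values were in TPM, a transcript abundance corrected for gene length and scaled to a total of 1000000 per library, so sequencing depth was unknown. Knockout library 3 stood apart over the whole transcriptome. It had 10634 genes at 1 TPM or more, against 11129 to 11235 in the other libraries, and its 50 most abundant genes took 80.3% of the TPM, against 69.2% to 75.9%. On the log2(TPM + 1) scale the median tested gene lay 0.27 and 0.24 above the wild-type mean in knockout libraries 1 and 2, and at -0.29 in knockout library 3. Results are therefore given with and without that library. The targeted gene Trp63 had 1.59, 0.816 and 1.76 TPM in knockout libraries 1, 2 and 3 and 3.48, 1.85 and 3.68 TPM in wild-type libraries 1, 2 and 3. All knockout values lay below all wild-type values (log2 fold change -0.74, SE 0.27), and limma's adjusted p over all genes was 0.27.

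RefSeq promoters were found for 6 of the 8 genes, Scnn1b, Scnn1g, Cftr, Slc26a6, Slc4a4 and Atp1b1, in 7 windows because Slc4a4 has 2 starts. Scnn1b and Scnn1g are next to each other among the coding genes of chromosome 7 in the assembly GRCm38.p6. The windows of the channel pair, of the pump gene and of Slc4a4, whose level separated the groups, are shown as the 250 bases before the start on the gene's strand. The windows of Cftr, whose level also separated the groups, and of Slc26a6 are not shown. Coordinates are in GRCm38.p6, while the authors' values rest on mm9. The first window is chr7:121864788-121865037 (plus strand), the second chr7:121734229-121734478 (plus strand), the third chr1:164458356-164458605 (minus strand), the fourth chr5:88887010-88887259 (plus strand) and the fifth chr5:89027716-89027965 (plus strand). Capitals mark a match to the p53 family decamer, a half-site of the element recognized by p53, p63 and p73.
Scnn1b: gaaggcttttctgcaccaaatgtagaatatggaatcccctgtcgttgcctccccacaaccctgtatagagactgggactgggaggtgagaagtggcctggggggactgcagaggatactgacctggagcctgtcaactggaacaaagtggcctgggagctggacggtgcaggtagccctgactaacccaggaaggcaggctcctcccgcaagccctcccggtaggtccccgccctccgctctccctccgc
Scnn1g: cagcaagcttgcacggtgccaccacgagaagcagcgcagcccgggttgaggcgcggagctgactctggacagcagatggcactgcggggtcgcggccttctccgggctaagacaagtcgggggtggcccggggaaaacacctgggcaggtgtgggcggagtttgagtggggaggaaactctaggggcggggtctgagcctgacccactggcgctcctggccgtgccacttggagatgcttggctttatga
Atp1b1: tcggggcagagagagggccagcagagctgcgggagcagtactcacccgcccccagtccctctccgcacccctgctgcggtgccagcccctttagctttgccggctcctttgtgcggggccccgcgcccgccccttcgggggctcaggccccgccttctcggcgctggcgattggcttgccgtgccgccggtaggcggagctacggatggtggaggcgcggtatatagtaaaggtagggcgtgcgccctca
Slc4a4 upstream start: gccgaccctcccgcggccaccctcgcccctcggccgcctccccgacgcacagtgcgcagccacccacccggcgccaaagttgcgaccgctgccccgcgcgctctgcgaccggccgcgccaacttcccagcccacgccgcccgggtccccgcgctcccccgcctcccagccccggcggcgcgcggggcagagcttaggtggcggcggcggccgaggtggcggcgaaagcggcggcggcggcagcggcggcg
Slc4a4 downstream start: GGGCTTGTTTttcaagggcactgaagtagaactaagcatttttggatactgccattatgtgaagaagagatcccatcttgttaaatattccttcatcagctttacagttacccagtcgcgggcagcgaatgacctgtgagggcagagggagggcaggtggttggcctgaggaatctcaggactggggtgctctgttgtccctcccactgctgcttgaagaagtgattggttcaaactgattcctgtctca
Both strands were searched for that decamer and for AGAACA, the hexamer of corticosteroid receptor elements. The decamer was found in 1 of the 7 windows, at the far end of the downstream Slc4a4 window, and in 7.13% of all 32851 promoter windows of the same length. The Cftr window held 0 matches to it. AGAACA was found in 0 of the 7 windows and in 16.1% of all windows. The upstream Slc4a4 window was the richest in G and C of the 7 (82.0%, with 44 CG pairs), and the downstream one the poorest (48.8%, with 3). The Scnn1g window held 16 CG pairs and its neighbour Scnn1b 7.

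In the knockout, Cftr and Slc4a4 lay below every wild-type library, while Scnn1a, Scnn1b and Atp1b1 lay above wild type in knockout libraries 1 and 2 and below it in knockout library 3. By limma's test on all 6 libraries 0 of the 8 genes passed (adjusted p of 0.05 or less), as against 0.390% of the 11268 genes tested (0.0710% higher and 0.319% lower). Below an unadjusted p of 0.05 there were 2 of 8, Cftr and Slc4a4, against 15.4% of all genes. These were also the 2 of 8 whose groups did not overlap, both lower in the knockout. The groups did not overlap for 21.1% of all genes (15.6% lower and 5.42% higher). Of the 8 log2 fold changes 5 were positive and 3 negative, with a median of 0.11, against a median of 0.09 for all genes.

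**Figure D1:**
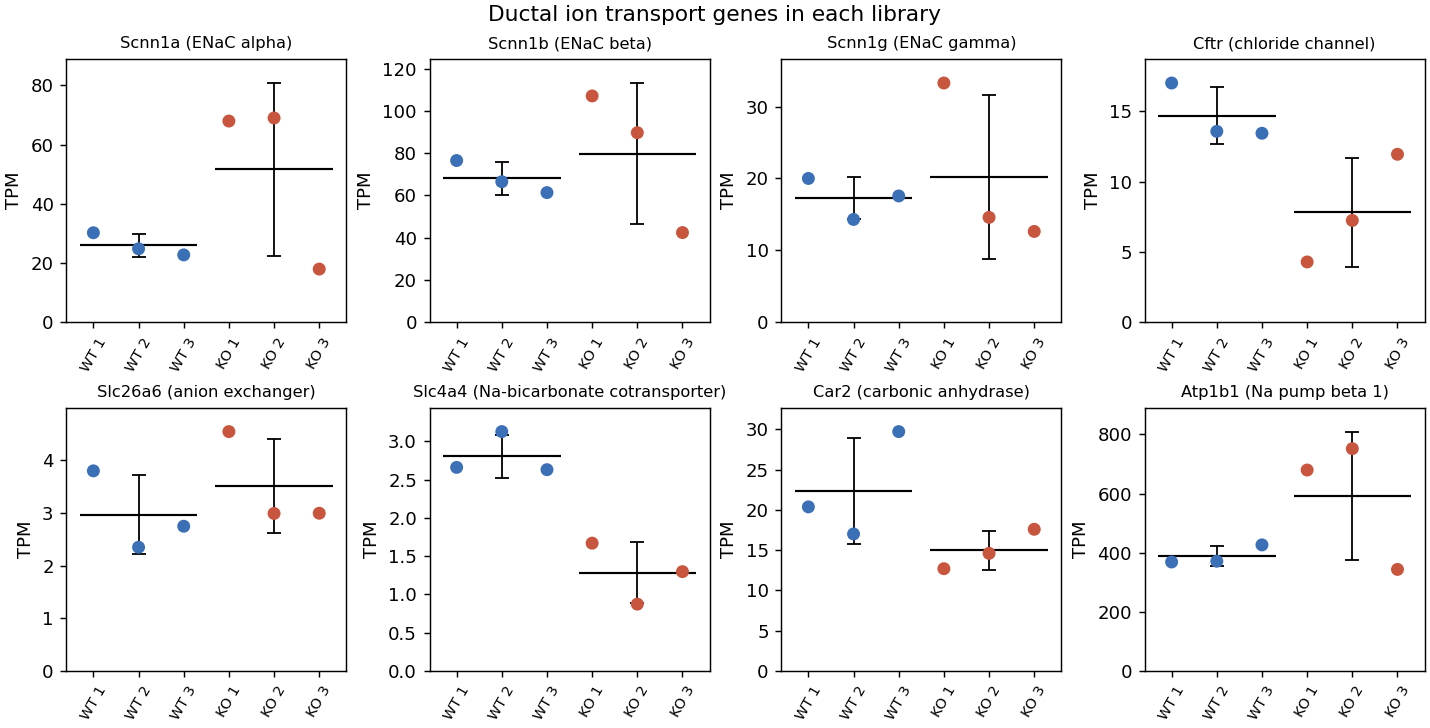
TPM of the 8 transport genes (vertical axes, each from 0) in wild-type libraries 1 to 3 (WT, blue) and knockout libraries 1 to 3 (KO, red), with horizontal lines at group means and bars of 1 SD. The knockout points lie below all wild-type points for Cftr and Slc4a4, and Scnn1a and Atp1b1 are high in KO 1 and KO 2 only.

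Scnn1a encodes the alpha subunit, which the channel needs to reach the membrane in working form. It measured 67.9, 69.0 and 18.0 TPM in knockout libraries 1, 2 and 3, and 30.2, 24.8 and 22.8 TPM in wild-type libraries 1, 2 and 3. Knockout libraries 1 and 2 thus lay above all wild-type libraries and knockout library 3 below them. The group means were 51.6 ± 29.1 TPM for knockout and 25.9 ± 3.86 TPM for wild type (SD, n = 3 each), with a log2 fold change of 0.75 (SE 0.49, adjusted p = 0.45) that did not pass limma's test.

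The beta subunit gene Scnn1b, whose product raises the channel's current, was the most abundant of the 3 subunits in every library. It stood at 107, 89.7 and 42.4 TPM for the knockout and at 76.5, 66.5 and 61.4 TPM in wild type. Knockout libraries 1 and 2 were again above wild type, and knockout library 3 was the lowest of all 6. The log2 fold change was 0.13 (SE 0.34, limma adjusted p = 0.85).

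Scnn1g, the gamma subunit gene, differed from the other subunits in knockout library 2. Its 3 knockout libraries were at 33.3, 14.6 and 12.6 TPM, and the wild-type ones at 20.001, 14.3 and 17.6 TPM. Only knockout library 1 lay above the wild-type range here, while library 2 lay within it. The log2 fold change was 0.10 (SE 0.37, adjusted p = 0.90).

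Ratios between subunits do not depend on how a library is scaled. The Scnn1b to Scnn1a ratio was 1.58, 1.30 and 2.36 in knockout libraries 1, 2 and 3, and 2.53, 2.68 and 2.70 in wild type. All knockout ratios lay below all wild-type ratios, with a difference of -0.64 on the log2 scale (exact two-sided permutation p = 0.1, the smallest that 3 libraries against 3 allow, and 0.36 with Benjamini-Hochberg adjustment over the 6 ratios compared, of which 5 are reported here). The Scnn1g to Scnn1a ratio was 0.490, 0.212 and 0.703 in the knockout and 0.662, 0.576 and 0.772 in wild type. These groups overlapped, because knockout library 3 lay within the wild-type range (difference -0.67, exact permutation p = 0.3, adjusted 0.36). The Scnn1g to Scnn1b ratio was -2.01 ± 0.52 in the knockout and -1.98 ± 0.21 in wild type on the log2 scale (SD, n = 3 each, exact permutation p = 1).

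**Figure D2:**
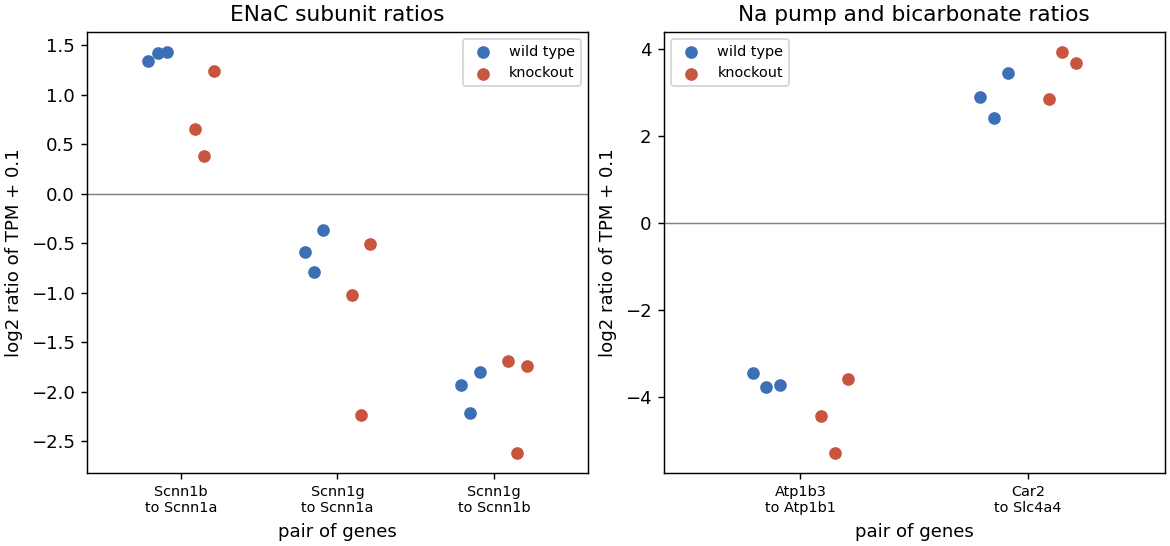
Log2 ratio of TPM + 0.1 (vertical axes) for 5 pairs of genes, 3 wild-type libraries in blue and 3 knockout libraries in red (1 to 3 from left to right). The Scnn1b to Scnn1a ratio is the 1 pair plotted whose groups do not overlap.

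Proteases, kinases, ubiquitin enzymes and steroid-induced proteins regulate the channel. Of 17 listed genes 14 were tested, 0 passed limma's test (2 below an unadjusted p of 0.05, against 15.4% of all genes), and the median log2 fold change was 0.16. Tsc22d3, a corticosteroid-induced gene whose product raises sodium channel activity, measured 83.1, 76.2 and 17.6 TPM for knockout and 14.99, 8.23 and 24.4 TPM for wild type. Knockout library 3 fell within the wild-type range, and the log2 fold change of 1.67 did not pass (SE 0.62, adjusted p = 0.27). The deubiquitinase gene Usp2 measured 27.4, 47.1 and 11.9 TPM against 6.998, 8.21 and 16.4 TPM (log2 fold change 1.26, SE 0.51, limma adjusted p = 0.30). St14, encoding the membrane protease matriptase, measured 43.8, 52.3 and 24.6 TPM against 27.3, 30.8 and 21.8 TPM (log2 fold change 0.53, SE 0.31, limma adjusted p = 0.41). All 3 genes were above every wild-type library in knockout libraries 1 and 2 only. Of the 14 tested, 10 lay above all wild-type libraries in both of these libraries, against 47.3% of all genes. Among the other 4, the channel-activating protease gene Prss8 was at 24.1, 48.8 and 38.2 TPM for knockout and 49.0, 53.9 and 44.2 TPM for wild type, and the kinase gene Stk39 was highest among knockout libraries in library 3 (56.3, 55.6 and 72.1 TPM against 69.4, 58.8 and 74.0 TPM).

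Cftr forms the cAMP-activated chloride channel of the luminal membrane. It measured 4.29, 7.24 and 11.9 TPM in knockout libraries 1, 2 and 3, and 17.0, 13.6 and 13.4 TPM in wild type. All knockout values were below all wild-type values, but library 3 was close to them. The means were 7.82 ± 3.86 TPM and 14.7 ± 2.02 TPM (SD, n = 3 each), a log2 fold change of -0.92 (SE 0.34, 95% interval -1.71 to -0.12). Cftr did not pass limma's test over all genes (adjusted p = 0.27, exact permutation p = 0.1). Set against each library's own median gene, Cftr deviated from the wild-type mean by -1.83, -1.16 and 0.02 in the knockout libraries, so that library 3 no longer lay below wild type.

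Slc26a6 exchanges chloride for bicarbonate at the luminal membrane. It was low throughout, at 4.54, 2.99 and 2.99 TPM for knockout and 3.80, 2.35 and 2.75 TPM for wild type. The groups overlapped, with a log2 fold change of 0.18 (SE 0.24, 95% interval -0.39 to 0.75, adjusted p = 0.69).

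Slc4a4 brings sodium and bicarbonate into the cell from the blood side. Its 3 knockout libraries were at 1.67, 0.873 and 1.30 TPM, and the wild-type ones at 2.66, 3.13 and 2.63 TPM. The highest knockout value was below the lowest wild-type value. The means were 1.28 ± 0.398 TPM and 2.80 ± 0.279 TPM (SD, n = 3 each), and the log2 fold change of -0.75 (SE 0.21, 95% interval -1.23 to -0.27) had the smallest unadjusted p of the 8 genes (0.0070, adjusted p = 0.15). It did not pass limma's test. Against each library's own median gene the knockout deviations were -0.78, -1.26 and -0.44 and the wild-type ones -0.08, 0.15 and -0.08, so these groups stayed apart. Its direction was the same in all 18 alternatives in which it was tested (-1.11 to -0.62). At so low a level the scale of log2(TPM + 1) understates the fold, and the knockout mean was 0.456 times the wild-type mean in TPM. In bulk RNA, fewer cells of a type and less RNA per cell cannot be told apart.

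Car2, the cytosolic carbonic anhydrase that turns CO2 and water into bicarbonate and a proton, measured 12.7, 14.6 and 17.6 TPM for knockout and 20.4, 17.0 and 29.7 TPM for wild type. Knockout library 3 was just above wild-type library 2, so the groups overlapped. The log2 fold change was -0.52 (SE 0.26, 95% interval -1.14 to 0.09, adjusted p = 0.37). Red blood cells also carry this enzyme. Of 9 listed red cell genes 7 were in the table, and the list summed to 1.56 to 4.13 TPM in the knockout and 4.44 to 7.11 TPM in wild type. The 4 globin genes among these 7 (Hbb-b1, Hbb-b2, Hba-a1 and Hba-a2) were at 0 TPM in all libraries. The sum came mostly from Alas2 and so cannot gauge red cell RNA. The part of these cells in the Car2 values was not tested.

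Of 13 other carbonic anhydrase genes 7 were tested and 0 passed limma's test (4 below an unadjusted p of 0.05, against 15.4% of all genes), with a median log2 fold change of -0.25. The groups did not overlap for 4 of the 7, with 3 lower and 1 higher, against 15.6% and 5.42% of all genes. Car13, another cytosolic enzyme, measured 10.5, 14.6 and 28.2 TPM for knockout and 54.5, 45.6 and 63.2 TPM for wild type (log2 fold change -1.66, SE 0.35, limma adjusted p = 0.088). Its knockout libraries stood in the same order as those of Cftr and Car2, with library 3 nearest to wild type. Car12, a membrane enzyme that faces outward, measured 15.6, 8.59 and 16.2 TPM against 21.7, 22.4 and 29.1 TPM (log2 fold change -0.85, SE 0.29, limma adjusted p = 0.23). Car3, abundant in fat and muscle, measured 16.7, 3.46 and 10.97 TPM against 51.3, 30.5 and 16.9 TPM (log2 fold change -1.66, SE 0.57, limma adjusted p = 0.24). The 6 adipocyte markers, Car3 among them, summed to 30.6 to 222 TPM in the knockout and 85.3 to 273 TPM in wild type. Their part in the Car3 difference was not tested.

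Among 22 other genes of chloride, bicarbonate and proton transport 12 were tested, and 0 passed limma's test (1 below an unadjusted p of 0.05, against 15.4% of all genes), with a median log2 fold change of -0.02. The groups did not overlap for 1 of the 12, against 21.1% of all genes. Slc9a3, the luminal sodium-proton exchanger, was the 1 gene whose groups did not overlap, at 2.33, 3.18 and 1.64 TPM for knockout and 3.63, 3.92 and 4.12 TPM for wild type (log2 fold change -0.56, SE 0.23, limma adjusted p = 0.32). Slc9a3r2, a scaffold protein that binds this exchanger, measured 51.4, 47.5 and 22.4 TPM against 25.6, 18.97 and 22.9 TPM (log2 fold change 0.74, SE 0.33, limma adjusted p = 0.34). It was high in knockout libraries 1 and 2 only. Slc4a11, of the same family as Slc4a4, measured 1.82, 3.93 and 5.53 TPM against 5.17, 5.44 and 8.39 TPM (log2 fold change -0.68, SE 0.35, limma adjusted p = 0.38).

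Atp1b1 encodes the beta 1 subunit that carries the sodium pump to the membrane, and it was by far the most abundant of the 8 genes. It ranked between 54 and 150 among all genes of a library. It measured 679.5, 752 and 343 TPM in knockout libraries 1, 2 and 3, and 368, 371 and 426 TPM in wild type. As with Scnn1a, knockout libraries 1 and 2 lay above all wild-type libraries and library 3 below them. The log2 fold change was 0.53 (SE 0.31, 95% interval -0.18 to 1.24, adjusted p = 0.41).

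Atp1b3, the other beta subunit detected at a substantial level, measured 31.6, 19.4 and 28.5 TPM for knockout and 33.99, 27.2 and 32.4 TPM for wild type (log2 fold change -0.25, SE 0.24, limma adjusted p = 0.59). The Atp1b3 to Atp1b1 ratio lay between 0.0258 and 0.0831 in the knockout and between 0.0734 and 0.0922 in wild type (exact permutation p = 0.3).

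Of 13 other pump subunit genes 8 were tested and 0 passed limma's test (2 below an unadjusted p of 0.05, against 15.4% of all genes), with a median of -0.13. Fxyd2, the gamma subunit that tunes the pump's affinity, was higher in all knockout libraries, at 470.3, 463 and 601 TPM against 395, 225 and 258 TPM (log2 fold change 0.84, SE 0.25, limma adjusted p = 0.19). Here knockout library 3 was the highest, unlike for Atp1b1. Fxyd1, the related subunit known as phospholemman, was lower in all of them, at 4.43, 3.81 and 3.30 TPM against 8.95, 5.28 and 6.63 TPM (log2 fold change -0.69, SE 0.25, limma adjusted p = 0.26).

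Potassium secretion by duct cells runs through channels of the luminal membrane. Of 19 listed genes 12 were tested and 0 passed limma's test (4 below an unadjusted p of 0.05, against 15.4% of all genes), with a median of -0.26. The groups did not overlap for 4 of the 12, with 1 higher and 3 lower, against 5.42% and 15.6% of all genes. Kcnmb1, an auxiliary channel subunit, passed the filter through the wild-type libraries only. It is counted among the 3 lower and among the 4 below an unadjusted p of 0.05. Kcnj16, an inward rectifier potassium channel subunit, measured 23.5, 27.4 and 29.4 TPM for knockout and 47.2, 50.8 and 64.0 TPM for wild type (log2 fold change -0.98, SE 0.21, limma adjusted p = 0.089). All its knockout libraries were well below wild type. Kcnma1, the pore of the large-conductance potassium channel, measured 27.4, 23.6 and 6.64 TPM against 6.39, 6.40 and 8.48 TPM (log2 fold change 1.12, SE 0.48, limma adjusted p = 0.32), and was thus high in knockout libraries 1 and 2 only. Atp4a, the catalytic subunit of a proton-potassium pump, ranged from 0.0909 to 12.8 TPM in the knockout and from 3.87 to 20.9 TPM in wild type (log2 fold change -1.24, SE 0.98, limma adjusted p = 0.52).

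**Figure D3:**
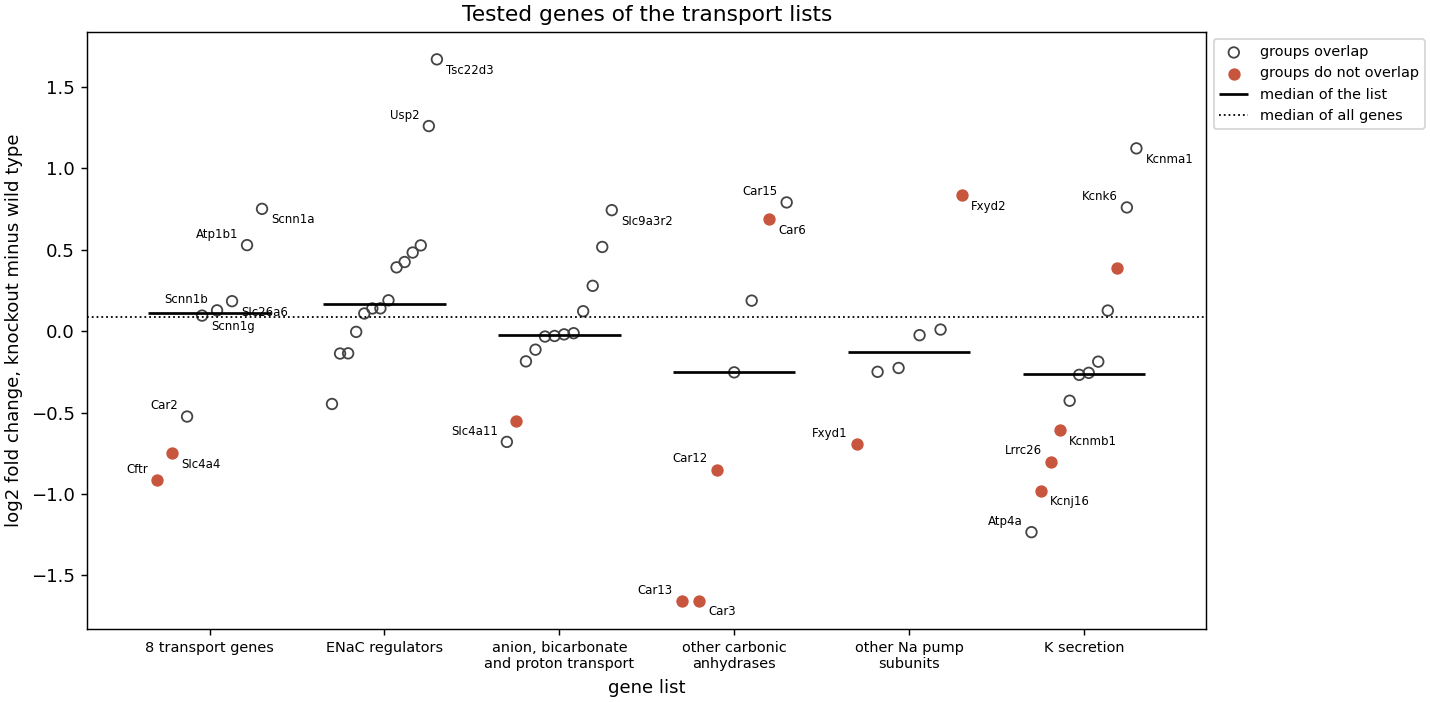
Log2 fold change of knockout against wild type on the log2(TPM + 1) scale (vertical axis) for the tested genes of the 6 lists that are reported here (horizontal axis), filled where the groups do not overlap. Medians over all tested genes of a list (lines) range from -0.26 to 0.16, and the dotted line is the median of all genes, 0.09.

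The 8 genes fell into different patterns when each library was set against the wild-type mean. In knockout library 1 Scnn1a, Scnn1g, Atp1b1 and Scnn1b lay 1.36, 0.92, 0.81 and 0.65 above that mean on the log2(TPM + 1) scale, while Cftr, Car2 and Slc4a4 lay at -1.56, -0.73 and -0.51. In knockout library 2 Scnn1a and Atp1b1 lay at 1.39 and 0.95, while Slc4a4, Cftr and Car2 lay at -1.02, -0.92 and -0.55. In knockout library 3 the deviations of 7 genes were negative, from -0.73 for Slc4a4 to -0.17 for Atp1b1, and Slc26a6 was at 0.03. The median of all genes was -0.29 in that library. The wild-type libraries stayed within -0.34 and 0.43 for all 8 genes, and both of these ends were Car2.

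**Figure D4:**
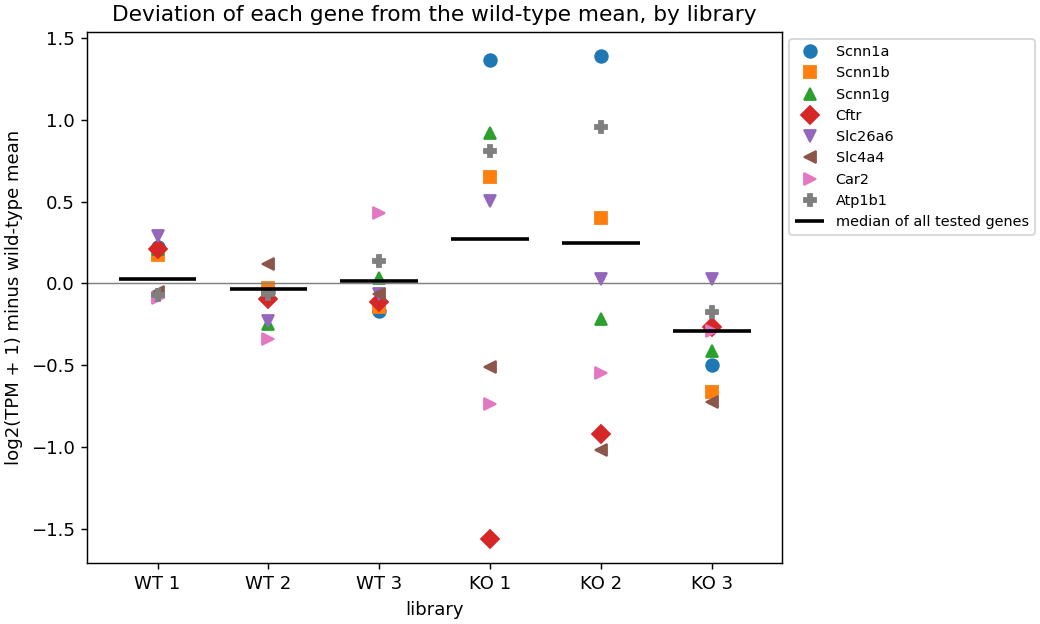
Difference of log2(TPM + 1) from the wild-type mean (vertical axis) for the 8 genes in each library (horizontal axis), with black bars at the median of all tested genes. Scnn1a is near 1.4 in KO 1 and KO 2 and at -0.50 in KO 3, where the median of all genes is -0.29.

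Without knockout library 3, 5 of the 8 genes passed limma's test, 3 as higher and 2 as lower. In that fit 45.5% of all genes passed (33.8% higher and 11.7% lower), and the median log2 fold change of all genes was 0.26. The 3 of 8 genes called higher are near that background. Knockout libraries 1 and 2 lay both above or both below all wild-type libraries for 6 of the 8 genes and for 67.1% of all genes tested. Of the 8, 3 lay above (47.3% of all genes) and 3 below, namely Cftr, Slc4a4 and Car2 (19.8% of all genes). Scnn1a stood at 1.38 (SE 0.16, adjusted p = 0.0010, over its alternatives 0.0010 to 1.0), Atp1b1 at 0.88 (SE 0.15, adjusted p = 0.0043, over its alternatives 0.0043 to 1.0) and Scnn1b at 0.52 (SE 0.16, adjusted p = 0.031, over its alternatives 0.031 to 1.0). Cftr stood at -1.24 (SE 0.22, adjusted p = 0.0046, over its alternatives 0.0027 to 1.0) and Slc4a4 at -0.76 (SE 0.20, adjusted p = 0.019, over its alternatives 0.0072 to 1.0). Relative to the median of all genes the differences were 1.12 for Scnn1a, 0.63 for Atp1b1 and 0.27 for Scnn1b, and -1.49 and -1.02 for Cftr and Slc4a4.

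When the 5 remaining libraries were also scaled by median of ratios, an alternative chosen after seeing the data, the median of all genes was near 0 and 41.2% of them passed, 20.5% as higher and 20.7% as lower. Scnn1a (1.08, adjusted p = 0.0024) and Atp1b1 (0.58, adjusted p = 0.021) were then the 2 called higher. Cftr (-1.50, adjusted p = 0.0027), Slc4a4 (-0.95, adjusted p = 0.0093) and Car2 (-0.93, adjusted p = 0.016) were the 3 called lower. Scnn1b, at 0.22, was no longer called (adjusted p = 0.26). With array weights in the fit of all 6 libraries, Scnn1a, Atp1b1, Cftr and Slc4a4 were called, as were 42.8% of all genes (30.9% higher and 11.9% lower). Of the 14 tested sodium channel regulators, 6 were called higher and 0 lower without knockout library 3, against 33.8% and 11.7% of all genes, and 3 higher and 1 lower with the scaling as well, against 20.5% and 20.7%. Of the 12 tested potassium genes the counts were 2 higher and 3 lower without that library, and 1 higher and 3 lower with the scaling, against the same shares. Kcnmb1, which passed the filter through the wild-type libraries only, is among these 12 genes, so the counts of lower genes may include it.

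**Figure D5:**
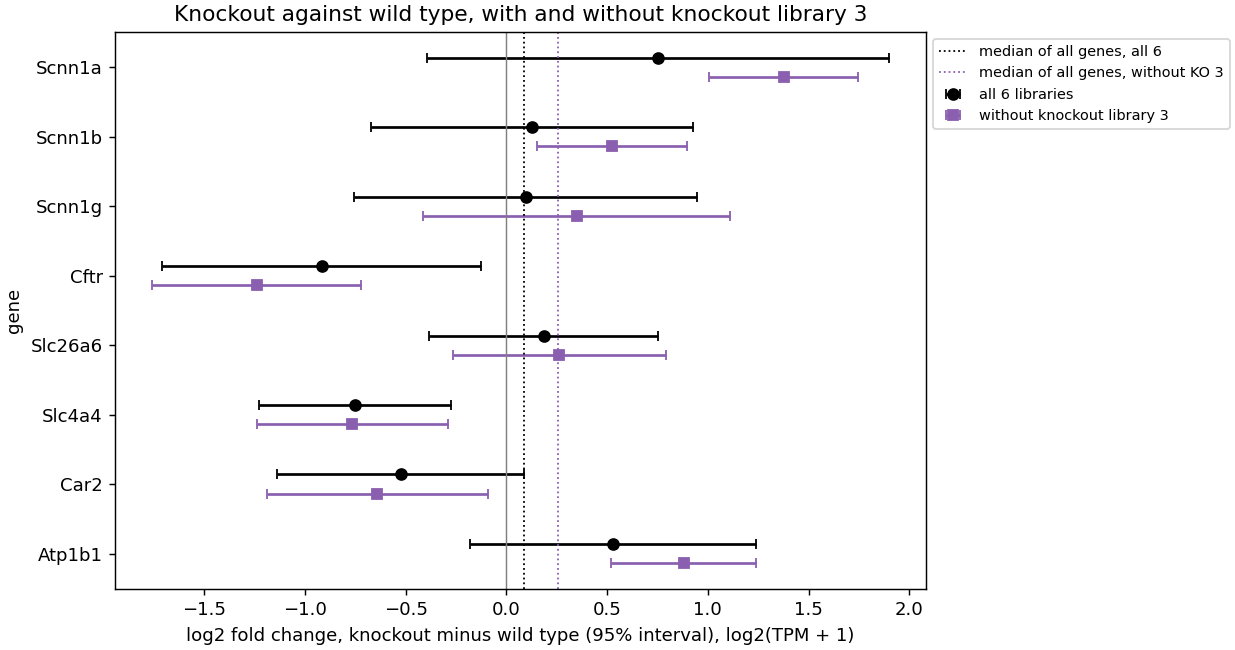
Log2 fold change of knockout against wild type with its 95% interval (horizontal axis) for the 8 genes (vertical axis), with all 6 libraries in black and without knockout library 3 in purple. Dotted lines mark the median of all genes, 0.09 and 0.26. Cftr and Slc4a4 are negative in both fits, and the interval of Scnn1a excludes 0 only without knockout library 3.

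In wild type the levels, which TPM gives per gene length, stood in the order Atp1b1, Scnn1b, Scnn1a, Car2, Scnn1g, Cftr, Slc26a6 and Slc4a4 by their means of 389, 68.1, 25.9, 22.4, 17.3, 14.7, 2.96 and 2.80 TPM. Wild-type ranges overlapped between the neighbours Scnn1a and Car2, Car2 and Scnn1g, Scnn1g and Cftr, and Slc26a6 and Slc4a4. Compared within each wild-type library, Car2 was above Scnn1g and Scnn1g above Cftr in every one. The order of Scnn1a and Car2, and that of Slc26a6 and Slc4a4, changed between wild-type libraries. Atp1b1 and Scnn1b were each clear of the gene below them, and Cftr was clear of Slc26a6. In knockout libraries 1 and 2 Scnn1a ranked 939 and 858 among all genes, against 1863 to 2320 in wild type, while Cftr ranked 8283 and 6765, against 3126 to 3730 in wild type. In knockout library 3 they ranked 2320 and 3348.

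Likeness of pattern was measured as the root mean square difference between log2(TPM + 1) profiles over the 6 libraries, each centred on its own mean. Among pairs of the 8 genes the closest were Scnn1g and Slc26a6 (0.27), Scnn1b and Atp1b1 (0.28) and Scnn1b and Scnn1g (0.31), and the farthest were Scnn1a and Cftr (1.28). Over all tested genes the nearest to Scnn1a were Wash (0.05) and Spata7 (0.07), the nearest to Scnn1b were Inpp5a (0.05) and Il17rc (0.05), and the nearest to Atp1b1 were Fam114a2 (0.04) and Ccdc174 (0.05). Lipt2 (0.09) and Bola3 (0.11) were nearest to Cftr, and Akr1b10 (0.07) and Mndal (0.08) to Slc4a4. Scnn1g had the fibroblast marker Pdgfra (0.09) and Edn1 (0.09) as its nearest genes, and Car2 had Oaf (0.11) and Gla (0.11).

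Markers of the duct cells were present in every library. For the counts that follow, 15.4% of all genes lay below an unadjusted p of 0.05 in limma's test. Of 10 listed genes of striated and excretory ducts, Klk1 among them, 10 were tested and 0 passed limma's test (3 below an unadjusted p of 0.05), and their sum was 8551 to 14665 TPM for knockout and 6035 to 7826 TPM for wild type. The kallikrein gene Klk1 carried most of this sum, and without it the list summed to 1065 to 2236 TPM for knockout and 1349.7 to 1509.6 TPM for wild type, which overlapped. The keratin genes Krt7 and Krt19 of this list lay below all wild-type libraries in the knockout (log2 fold changes of -0.96 and -1.61, limma adjusted p of 0.099 and 0.085). They were the 2 of 10 whose groups did not overlap, against 21.1% of all genes. Of the 10 log2 fold changes 5 were positive and 5 negative, with a median of 0.02, and the keratin genes Krt18 and Krt8 were at 0.73 and 0.17. Of 9 ionocyte markers, genes of the duct cells that are rich in Cftr and proton pumps in other epithelia, 9 were tested and 0 passed (2 below an unadjusted p of 0.05). They summed to 144 to 325 TPM for knockout and 184 to 207 TPM for wild type, and the ionocyte regulator Foxi1 measured 5.04, 7.03 and 13.85 TPM against 8.96, 6.70 and 10.995 TPM. Foxi1 thus stood in the same order as Cftr over the knockout libraries but overlapped between the groups. Another ionocyte regulator, Ascl3, measured 3.76, 29.95 and 29.3 TPM against 37.6, 22.5 and 32.7 TPM, in a different order over the knockout libraries. The part of these cells in the Cftr and Slc4a4 values was not tested.

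Lists of other cell types differed in how they stood between the groups. Over all genes 0.319% passed limma's test as lower and 0.0710% as higher, and 15.4% lay below an unadjusted p of 0.05. Of 12 granular tubule genes 11 were tested, and 4 passed as lower and 0 as higher (11 below an unadjusted p of 0.05, all lower). This list summed to 22744 to 52926 TPM for knockout and 151620 to 174200 TPM for wild type. Of 9 tested basal and myoepithelial genes, the targeted Trp63 among them, 2 passed as lower (9 below an unadjusted p of 0.05, all lower). The list summed to 196 to 323 TPM against 652 to 686 TPM. The 7 leukocyte markers had 0 that passed (7 below an unadjusted p of 0.05) and summed to 103 to 203 TPM against 397 to 457 TPM. Of 7 fibroblast markers 1 passed as lower (4 below an unadjusted p of 0.05), with sums of 131 to 270.5 TPM against 279 to 358 TPM. Dcn made up most of these sums, at 213, 144 and 107 TPM for knockout and 221, 176 and 223 TPM for wild type. On the log2 scale Dcn was at -0.47, Pdgfra at -0.03 and Pdgfrb at -0.15, and these overlapped between the groups. For 4 of the 7 markers the groups did not overlap, all lower, against 15.6% of all genes. Taken over all 7, the median was -2.02. The 6 endothelial markers had 0 that passed (1 below an unadjusted p of 0.05) and summed to 16.5 to 26.8 TPM against 24.3 to 27.8 TPM, with a median log2 fold change of -0.03. Acinar markers had 7 tested and 0 that passed (1 below an unadjusted p of 0.05), and summed to 187280 to 240150 TPM against 132520 to 156560 TPM. Prol1 and Pip made up nearly all of this, and the other acinar genes summed to 809 to 1289 TPM for knockout and 707 to 974 TPM for wild type, which overlapped. The water channel gene Aqp5 was at -0.08 and the acinar transcription factor gene Bhlha15 at -0.11 on the log2 scale. These were the 2 negative log2 fold changes of the 7, and the other 5 were positive, with a median of 0.24 for the list. Of the markers of the neighbouring parotid and sublingual glands 7 were tested and 0 passed (1 below an unadjusted p of 0.05). Bpifa2, Dcpp1, Dcpp2 and Dcpp3 of this list were highest in knockout library 1 and wild-type libraries 1 and 2, with the parotid protein gene Bpifa2 at 3648, 15.3 and 281 TPM for knockout and 826, 5152 and 389.6 TPM for wild type. Without those 3 libraries, which leaves 2 knockout libraries against 1, Slc4a4 was at -0.81 and Cftr at -0.48, and 0 of the 8 genes passed. The part of these cell types in the values of the 8 genes was not tested.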

How the data were processed

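RNA-seq libraries came from submandibular gland epithelial cells of 3 wild-type and 3 p63 knockout samples. Per the labels, the authors turned raw counts into TPM, which takes out library size and gene length, and deposited these TPM values. The submitters' processing notes name TopHat2 2.1.1, Bowtie2 2.2.6, featureCounts 1.5.1, DESeq2 1.20.0 and the mm9 genome. Annotation, gene lengths, strand setting and read totals are not given in the sources used here, so no counting error could be given.

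Genes reaching 1 TPM in 3 or more libraries (11268 of 23366) were tested on log2(TPM + 1) with limma 3.58.1 (mean-variance trend, two-sided) in R 4.3.3, with Benjamini-Hochberg adjustment over all of them and a threshold of 0.05. Every adjusted p of a gene comes from this fit or its named alternative. Fold changes on this scale understate those of low genes. Ratios used TPM + 0.1 and exact permutation tests over 20 arrangements. Genotype labels gave the groups, and replicates were numbered in accession order because the labels share no numbers. The title of wild-type library 1 holds C where those of the other wild-type libraries hold WT, and its genotype label is wild type like theirs. The fit was tested on simulated data with independent noise for each gene and library. No shift of a whole library was simulated, so that test does not cover data such as knockout library 3.

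The genes and lists were chosen with earlier results of these data known. Of each pathway list the genes that passed were to be named, or the 3 with the largest log2 fold change where none did, besides the 8 genes themselves, Atp1b3, Trp63 and the 2 nearest in pattern. Some pump genes stayed in the fits and counts but are not reported here. Other genes named were chosen after their values were seen. Sequences came from RefSeq (GRCm38.p6). Alternatives changed the pseudocount, filter, scaling, variance model, block and libraries. Figures were drawn with matplotlib 3.10.9.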

Additional observations from a re-analysis of the deposited data

How the results depend on the processing

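The number of genes called was 44. It was 25 with a pseudocount of 0.1 TPM, 11 with no filter, 29 with a filter of 5 TPM, 73 with median-of-ratios scaling, 72 with quantile normalization, 4822 with array weights, 20 without knockout library 1 and wild-type libraries 1 and 2, and 4641 without knockout library 3 and with median-of-ratios scaling. Leaving out 1 library at a time gave 0 to 5127 genes, the highest without knockout library 3 and 0 without wild-type library 2 or 3 in limma's test (1024 and 1020 genes below an unadjusted p of 0.05). Of the 8 transport genes 0 were called. The count was 4 with array weights, 5 without knockout library 3 and with median-of-ratios scaling, and 0 to 5 when 1 library was left out, with 0 in each such fit except that without knockout library 3. The cause of these shifts was not tested.

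Directions held in all alternatives for Scnn1a, Cftr, Slc26a6, Slc4a4, Car2 and Atp1b1. Scnn1g turned to -0.056 under quantile normalization and to -0.35 without knockout library 1 and wild-type libraries 1 and 2, and ranged from -0.32 to 0.35 when 1 library was left out. Over such fits Scnn1b ranged from -0.13 to 0.52 and the log2 difference in the Scnn1g to Scnn1b ratio from -0.20 to 0.27. A replicate block of libraries with neighbouring index numbers in their titles (14 and 15, 19 and 20, 29 and 30) called 31 genes and 0 of the 8, and changed no call among them. The labels do not say that these libraries were paired. Depth was unknown, so counting error could not be set beside the values near 1 TPM, Slc4a4 above all.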

Other observations

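The large-conductance potassium channel is built from a pore, encoded by Kcnma1, and auxiliary subunits. Lrrc26, an auxiliary subunit of secretory epithelia, measured 42.8, 50.4 and 71.7 TPM in knockout libraries 1, 2 and 3 and 123, 77.8 and 87.4 TPM in wild type (log2 fold change -0.80, SE 0.27, limma adjusted p = 0.23). All its knockout values lay below wild type, while those of Kcnma1 were high in knockout libraries 1 and 2. Kcnmb1, an auxiliary subunit best known from smooth muscle, measured 0.362, 0.316 and 0.449 TPM against 1.08, 1.16 and 1.05 TPM (log2 fold change -0.61, SE 0.14, limma adjusted p = 0.11). Kcnmb1 reached 1 TPM in the wild-type libraries only and passed the filter through them, so the filter itself favoured a lower direction for it.

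The secreted carbonic anhydrase gene Car6 was among the most abundant genes of every library, at 76962, 70804 and 55011 TPM for knockout and 44918, 35741 and 44548 TPM for wild type. It was higher in all knockout libraries (log2 fold change 0.69, SE 0.21, limma adjusted p = 0.20), in the opposite direction to Car13, Car12 and Car3. Among ionocyte markers, Stap1, an adaptor protein gene, measured 3.78, 5.08 and 8.28 TPM against 13.5, 14.7 and 19.5 TPM (log2 fold change -1.37, SE 0.30, limma adjusted p = 0.092), and the proton pump subunit gene Atp6v1b1 measured 5.44, 3.75 and 4.96 TPM against 7.03, 9.89 and 14.9 TPM (log2 fold change -0.98, SE 0.30, limma adjusted p = 0.20). None of these 5 genes passed limma's test with all 6 libraries.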
